A study of Mus musculus with 12 samples.

Results

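The 3 genes of the PLAG family, *Plag1*, *Plagl1* and *Plagl2*, were examined for accessible chromatin in primary fibroblasts of mouse lower abdominal muscle. A peak was assigned to a gene where its summit fell in the GENCODE M21 gene body or in the 50000 bp upstream of it, on mouse build mm10 (GRCm38), and promoter peaks were those within 3000 bp of any transcript start. By this rule 88 of 658361 listed peaks were assigned, of which 32 lay at *Plag1*, 41 at *Plagl1* and 15 at *Plagl2*. The members are 3 of 21938 protein-coding genes to which the same rule was applied.

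ATAC-seq, which uses the Tn5 transposase to tag DNA that is open to it, was performed on 12 libraries, with 3 for each of 4 treatments. All cells came from *Aromhum* mice, a strain with a human aromatase transgene that converts androgen to estrogen in muscle. Vehicle cells had ethanol and DMSO, and the second group had estradiol (E2) at 10 nM. The third had E2 at 10 nM with fulvestrant at 100 nM, and the last had fulvestrant alone at 100 nM. Cells were harvested 1 hr after E2 or ethanol was added. Fulvestrant is an antagonist that blocks the estrogen receptor ESR1 and leads to its degradation, and the comparison of E2 with E2 plus fulvestrant addresses how chromatin differs with receptor activity. Per the methods of the study, the fibroblasts were enriched by their rapid adhesion to gelatin-coated plates, passaged once and starved of serum overnight. They were pretreated with fulvestrant or DMSO for 3 hr before E2 or ethanol was added. There was no group from mice without the transgene. The labels do not say whether the 3 libraries of a group came from separate mice, so the p-values measure the spread between libraries, which may be technical.

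PLAG proteins are zinc finger transcription factors that bind GC-rich DNA. *Plag1* was found as an oncogene activated in pleomorphic adenomas of the salivary gland, and it promotes fetal growth, in part through *Igf2*. *Plagl1*, also known as *Zac1*, restrains proliferation, is expressed from the paternal allele, and belongs to a network of imprinted genes. *Plagl2* is the closest relative of *Plag1* and is linked to Wnt signaling and to the renewal of progenitor cells.

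The sequences below, from GRCm38 and written 5′ to 3′ on the plus strand, are shown because they lie in the most recurrent or the strongest peak regions of the 3 loci. The first 3 come from the leading start-site regions and include no exon, and the other 2 come from introns. The *Plag1* start-site stretch is centered on the strongest summit of its region by fold enrichment. The *Plagl1* start-site stretch ends just before a start and holds only the summit of vehicle replicate 1. The stronger summits of that region lie downstream of the stretch. Capitals mark matches to searched motifs, which were the PLAG1 element (GGGGC or GAGGC followed after 6 to 8 bases by GGG), AP-1 (TGACTCA or TGAGTCA) and the estrogen response element (GGTCA and TGACC, 3 bases apart), each on both strands.
*Plag1* start site, chr4:3938568-3938767: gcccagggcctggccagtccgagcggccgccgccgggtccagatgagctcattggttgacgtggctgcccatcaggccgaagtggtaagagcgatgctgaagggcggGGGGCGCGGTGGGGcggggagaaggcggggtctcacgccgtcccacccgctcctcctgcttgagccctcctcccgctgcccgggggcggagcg
*Plagl1* start site, chr10:13090491-13090690: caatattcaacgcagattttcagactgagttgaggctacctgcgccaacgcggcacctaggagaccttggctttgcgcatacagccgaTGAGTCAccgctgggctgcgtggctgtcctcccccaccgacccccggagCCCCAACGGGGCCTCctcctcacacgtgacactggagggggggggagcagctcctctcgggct
*Plagl2* start site, chr2:153241427-153241532: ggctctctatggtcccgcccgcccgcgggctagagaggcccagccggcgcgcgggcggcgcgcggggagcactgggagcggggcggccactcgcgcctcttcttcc
*Plag1* intron, chr4:3929670-3929869: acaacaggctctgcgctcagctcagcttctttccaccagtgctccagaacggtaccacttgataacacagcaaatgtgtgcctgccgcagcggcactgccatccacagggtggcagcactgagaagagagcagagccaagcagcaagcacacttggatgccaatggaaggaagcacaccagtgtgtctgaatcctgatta
*Plagl1* intron, chr10:13079563-13079762: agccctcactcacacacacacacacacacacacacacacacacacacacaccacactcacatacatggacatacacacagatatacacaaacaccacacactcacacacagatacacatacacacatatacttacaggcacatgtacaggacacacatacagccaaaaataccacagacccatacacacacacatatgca

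The start-site sequences of *Plag1* and *Plagl2* were the richest in GC, with 73.5% over 200 bp and 20 CpG in the former and 79.2% over 106 bp and 16 CpG in the latter. The *Plagl1* start-site stretch had a GC content of 64% and 13 CpG. It holds a PLAG1 element, read on the minus strand, and an AP-1 match, whereas the *Plag1* stretch holds a PLAG1 element on the plus strand. The *Plagl2* stretch holds no match to any of the 3 motifs. The *Plag1* intron has a GC content of 54.5% and 4 CpG, and the *Plagl1* intron, made largely of CA repeats, has a GC content of 44.5% and no CpG, with no motif match in either.

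The libraries were unequal in ways that touch every result at these loci. They listed between 30062 and 110724 peaks, and between 7.35% and 46.4% of a list passed a q-value of 0.05. The lists give no read totals, and the background recovered from them, which is proportional to depth, ranged from 0.713 to 1.42 tags per window. The share of protein-coding genes with a promoter peak was 57.6% to 62.7% in the 4 libraries of replicate number 1 and 17.3% to 53.7% in the other 8. The 4 libraries of number 1 also held 22 to 36 peaks on the Y chromosome, against 854 to 1148 in the rest, so numbers 2 and 3 stood apart from number 1 across all 4 treatments. The methods of the study describe male mice. The cause of the low number of Y chromosome peaks in the number 1 libraries, and of the other differences between replicate numbers, was not tested. Results that rest on these libraries are given by replicate number. Of 8 fibroblast marker genes, the promoters were listed in 3 to 10 libraries, with a median of 6.5, and *Vim*, *Col1a1* and *Pdgfra* were listed in 10, 9 and 7. The 5 myogenic genes ranged from 0 to 6 libraries with a median of 1, with *Myod1* and *Pax7* in 0, *Myf5* in 1, *Myog* in 4 and *Des* in 6, so that *Des* exceeded *Lum* at 3 and *Dcn* at 5 of the fibroblast list. The median was 1 each for 3 immune and 3 epithelial genes, and 5 for the 3 endothelial genes. A region absent from a list may lie under the depth or enrichment needed for a call and is not shown to be closed. Fulvestrant replicate 3 had the highest recovered background, 1.42, and promoter peaks at 19.5% of genes. Vehicle replicate 1 had the lowest, 0.713, and promoter peaks at 57.6%. The median fold enrichment of listed promoters was 3.28 in the former and 4.02 in the latter. The former is of replicate number 3 and the latter of number 1. Within number 1, the share was 57.6% at a background of 0.713, 60.2% at 1.105, 62.7% at 1.213 and 62.6% at 1.253. In the other 8 libraries, the lowest share was 17.3% at 0.979 and the highest 53.7% at 1.018. The part of depth in these shares was not tested.

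*Plag1* (ENSMUSG00000003282.9, chr4:3900996-3938423, minus strand) had the strongest peak of the family, which lay between its start and that of *Chchd7*, a mitochondrial protein gene read in the opposite direction. The starts of both genes are 465 bp apart. The merged region, chr4:3938425-3939280, was listed in 9 of 12 libraries and passed q of 0.05 in 8. Only 0.505% of 435284 merged regions were listed in 9 or more libraries.

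The strength of the *Plag1* start-site peak varied widely among libraries. Fold enrichment over local background was 14.2 and 18.7 in vehicle replicates 1 and 3, with 35 and 74 tags at the summit, and no peak was listed in vehicle replicate 2. Among E2 libraries it was 20.4 with 104 tags in replicate 1 and 4.20 with 8 tags in replicate 2, with none listed in replicate 3. Replicates 1 and 2 of E2 plus fulvestrant had 17.2 with 80 tags and 3.31 with 6 tags, and replicate 3 had none. All 3 fulvestrant libraries had the peak, at 20.7, 13.6 and 4.96 fold with 98, 30 and 11 tags. Each treatment thus held a library with fold enrichment above 14 and, except for vehicle, a library with a listed peak below 5.

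Within its own list, the *Plag1* peak was above 99.4% of all peaks by p-value in the 6 libraries where its fold enrichment exceeded 13. It also exceeded the promoters of 99.6% or more of the genes with a promoter peak there. In these libraries and in fulvestrant replicate 3, the summit was between 228 and 290 bp upstream of the *Plag1* 5′ end. The weaker peaks of E2 replicate 2 and E2 plus fulvestrant replicate 2 had summits 676 and 564 bp upstream, within the *Chchd7* gene, each 56 bp from a *Chchd7* start. E2 replicate 2 had another promoter peak 1450 bp upstream, with a fold enrichment of 2.80 and 5 tags. The accessible site cannot be assigned to one of these divergent genes from these data.

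**Figure D1:**
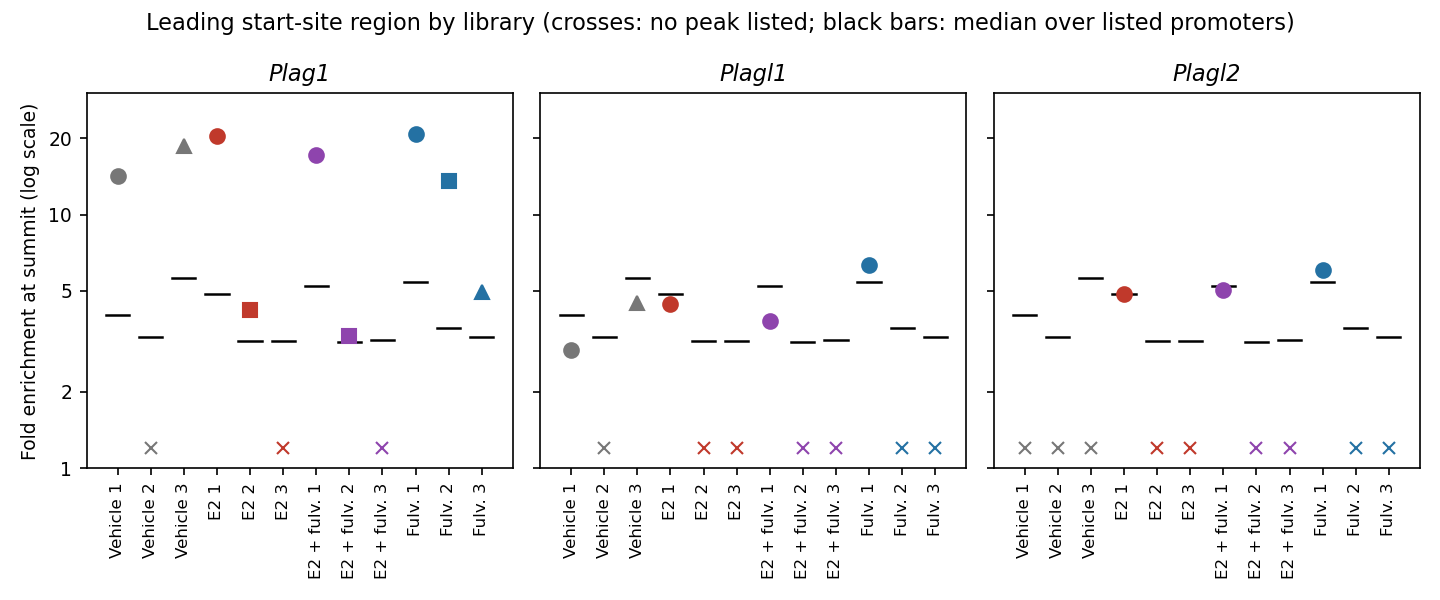
Fold enrichment at the summit (log scale) of the leading start-site region of each gene in the 12 libraries, grouped by treatment. Circles, squares and triangles are replicates 1, 2 and 3, crosses mark libraries with no listed peak, and black bars give the median over all genes with a promoter peak in that library. The *Plag1* site reached 20.7 and stood far above the bar in 6 libraries, whereas the *Plagl1* and *Plagl2* sites stayed near or below it, from 2.92 to 6.33.

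Promoter peaks at *Plag1* were found in 9 libraries, a number reached by 11.8% of protein-coding genes. Genes with a divergent neighbor within 1000 bp had promoter peaks in a median of 7 libraries, against 5 for the other protein-coding genes, and 20.1% of these 1476 genes reached 9. By treatment, *Plag1* was listed in 2 vehicle, 2 E2, 2 E2 plus fulvestrant and 3 fulvestrant libraries. By replicate number, it was listed in all 4 libraries of number 1, at 14.2 to 20.7 fold, and in 5 of the other 8, at 3.31 to 18.7 fold. Over all genes, 42.6% had a promoter peak in all 4 libraries of number 1 and 14.1% in 5 or more of the other 8. The share of genes with a promoter peak differed between libraries in the same direction, and its part in the *Plag1* pattern was not tested.

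Away from the start, the *Plag1* locus held weak and mostly scattered peaks. The most recurrent was an intronic region, chr4:3926884-3927386, listed in vehicle replicates 1 and 2, E2 plus fulvestrant replicate 1 and fulvestrant replicate 3. Its fold enrichment was 2.78 to 3.72, and it passed q of 0.05 in 0 libraries. Another intronic region, chr4:3922829-3923463, was listed in 3 libraries at 2.47 to 3.16. The intron whose sequence is given above, chr4:3929591-3929943, was listed in 2 libraries, E2 plus fulvestrant replicate 1 at 3.80 with 7 tags and fulvestrant replicate 1 at 4.97 with 10 tags, and passed q of 0.05 in both. It lay 8590 to 8613 bp from the nearest *Plag1* start, and both libraries were of replicate number 1. Of the 32 *Plag1* peaks, 12 were intronic, 1 was exonic and 19 were upstream, 4 of the latter within *Chchd7*.

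*Plagl1* (ENSMUSG00000019817.18, chr10:13060504-13131694, plus strand) has 11 annotated start positions, and its leading region lay at an internal cluster of them. This region, chr10:13090393-13091163, was listed in 5 libraries and passed q of 0.05 in 4. Its summits lay 30092 to 30544 bp downstream of the outermost start and within 95 bp of the nearest one. They also lay 769 to 1221 bp from the start of the noncoding gene *Gm27741*. Fold enrichment was 2.92 in vehicle replicate 1 with 4 tags, 4.46 in vehicle replicate 3 with 8, 4.44 in E2 replicate 1 with 9, 3.80 in E2 plus fulvestrant replicate 1 with 7 and 6.33 in fulvestrant replicate 1 with 13. Every treatment had the region in its replicate 1 library, and vehicle replicate 3 was the only other library in which it was listed.

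By the 3000 bp rule, *Plagl1* promoters were listed in 8 libraries, a number reached by 20.8% of genes. That share makes no allowance for the number of starts, which is 11 at *Plagl1*, 4 at *Plag1* and 2 at *Plagl2*. The other starts accounted for E2 plus fulvestrant replicates 2 and 3 and fulvestrant replicate 3, where the strongest promoter peaks had fold enrichments of 3.31, 3.96 and 3.31 with 6, 7 and 7 tags. All 3 E2 plus fulvestrant libraries and 1 of 3 E2 libraries had a promoter peak, but these lay at different starts. At q of 0.05 or less, 4 libraries remained in all. In the 4 libraries of replicate number 1, promoters and the leading region were listed in all 4, whereas among the other 8 the promoters were listed in 4 and the leading region in 1.

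Other *Plagl1* regions were weak. The widest, at chr10:13079284-13080480 in the CA-rich intron shown above, was listed in vehicle replicates 1 and 2, E2 plus fulvestrant replicate 1 and fulvestrant replicates 1 and 3. It lay 10590 bp or more from any *Plagl1* start, with fold enrichment from 2.26 to 4.37, and passed q of 0.05 only in vehicle replicate 2. An upstream region, chr10:13051982-13052361, was listed in vehicle replicate 2, E2 replicate 1 and fulvestrant replicate 1 at 2.78 to 4.07. It lay 8310 to 8464 bp upstream of *Plagl1* and 655 to 809 bp from the start of the noncoding gene *Gm47691*. Of the 41 *Plagl1* peaks, 25 were intronic, 7 were exonic and 9 were upstream.

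*Plagl2* (ENSMUSG00000051413.17, chr2:153227759-153241426, minus strand) had the fewest peaks, and 5 of 12 libraries listed none. Its start lies 107 bp from that of *Pofut1*, which encodes an enzyme that adds fucose to Notch receptors. A region across both starts, chr2:153241167-153241971, was listed in 3 libraries and passed q of 0.05 in all 3. Fold enrichment was 4.88 with 10 tags in E2 replicate 1, 5.05 with 10 in E2 plus fulvestrant replicate 1 and 6.05 with 14 in fulvestrant replicate 1. All 3 were replicate number 1, and neither the fourth library of that number, vehicle replicate 1, nor any of the other 8 libraries listed it.

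A separate promoter peak, in vehicle replicate 2, had a fold enrichment of 3.33 with 5 tags, so that *Plagl2* promoters were listed in 4 libraries. That number was reached by 63.0% of genes. Promoter peaks in 3 or more libraries of number 1 and in at most 1 of the others, as at *Plagl2*, were found for 8.93% of genes. An exonic region, chr2:153232061-153232428, was listed in vehicle replicate 2, E2 replicate 1 and E2 plus fulvestrant replicate 2 at 3.72, 3.11 and 2.84, with q above 0.05 in each. Of the 15 *Plagl2* peaks, 11 were upstream, 6 of them within *Pofut1*, and 1 of the upstream peaks lay 62 bp from the start of the kinesin gene *Kif3b*.

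**Figure D2:**
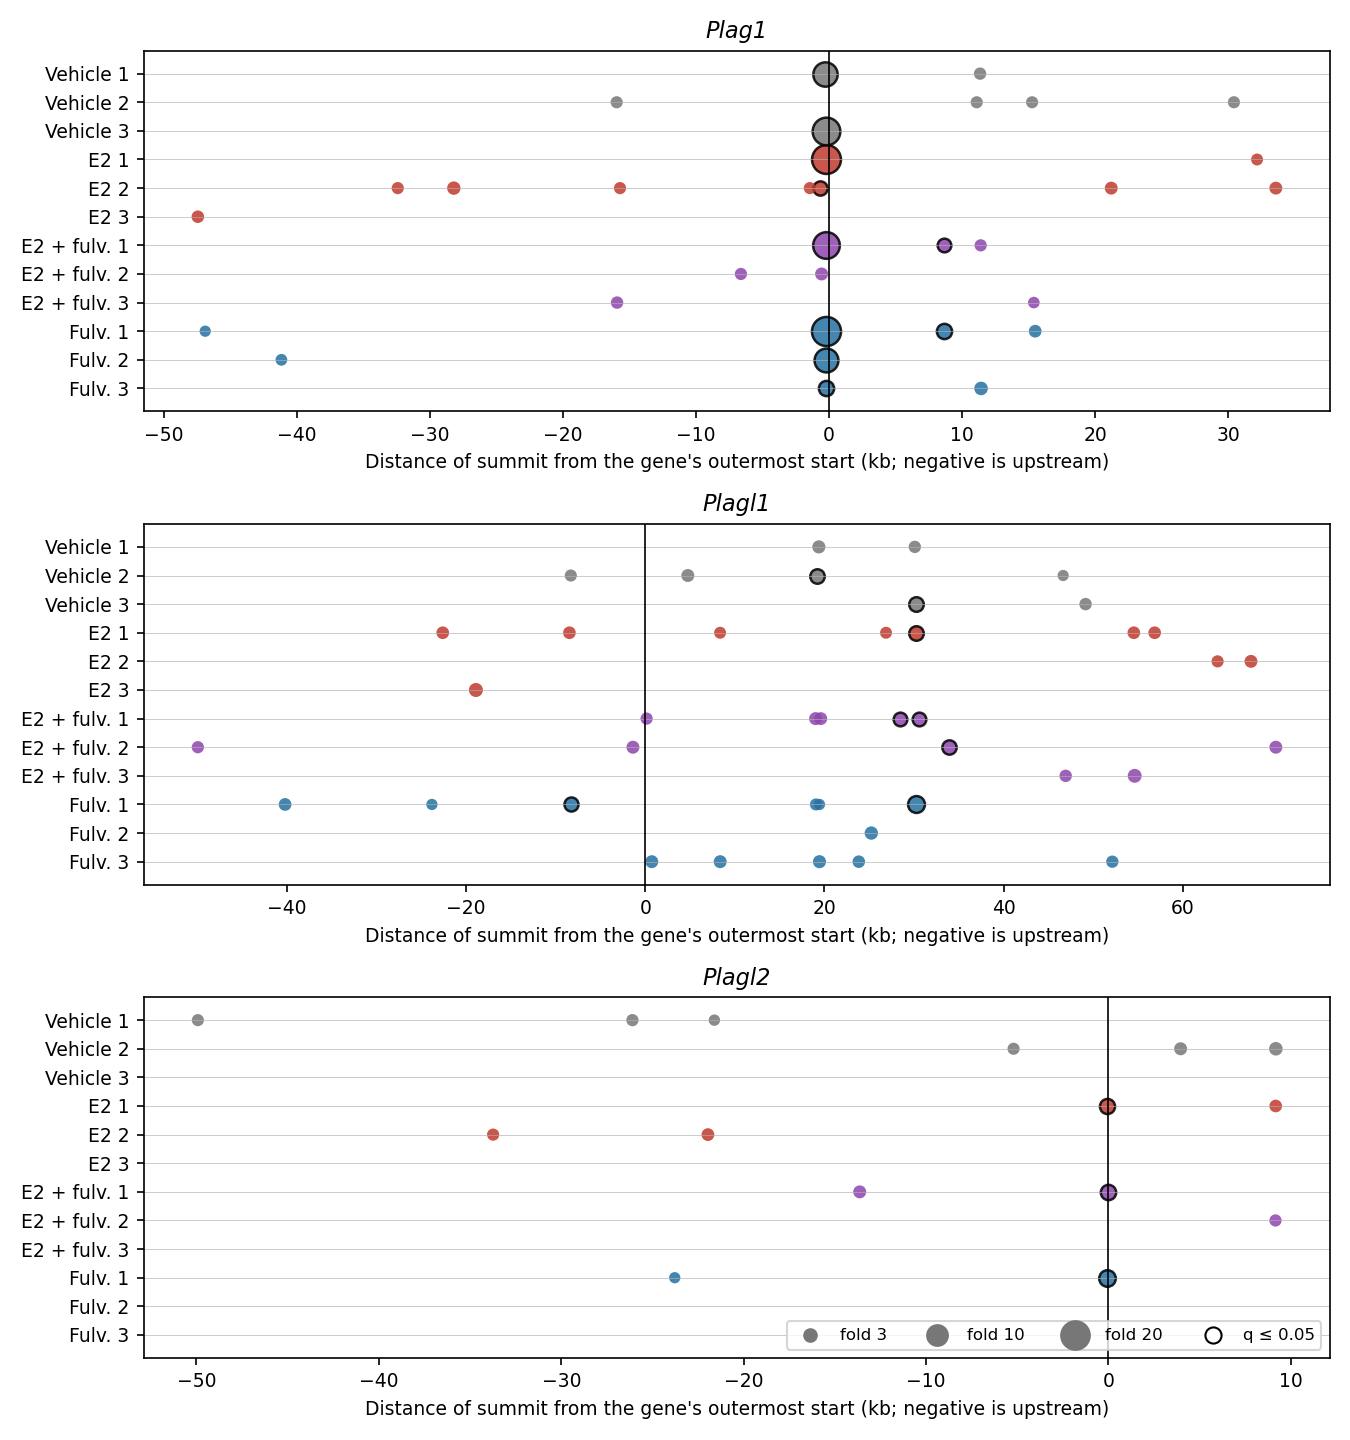
Distance of each listed peak's summit from the outermost start of its gene (kb, negative upstream) against library, for the 88 peaks. Point area increases with fold enrichment, color gives the treatment and a black outline marks q of 0.05 or less. *Plag1* has a column of large points at its start in 6 libraries, *Plagl1* has outlined points at its internal start cluster, 30 kb into the gene, in 4 libraries, and *Plagl2* has outlined points at its start in 3.

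**Figure D3:**
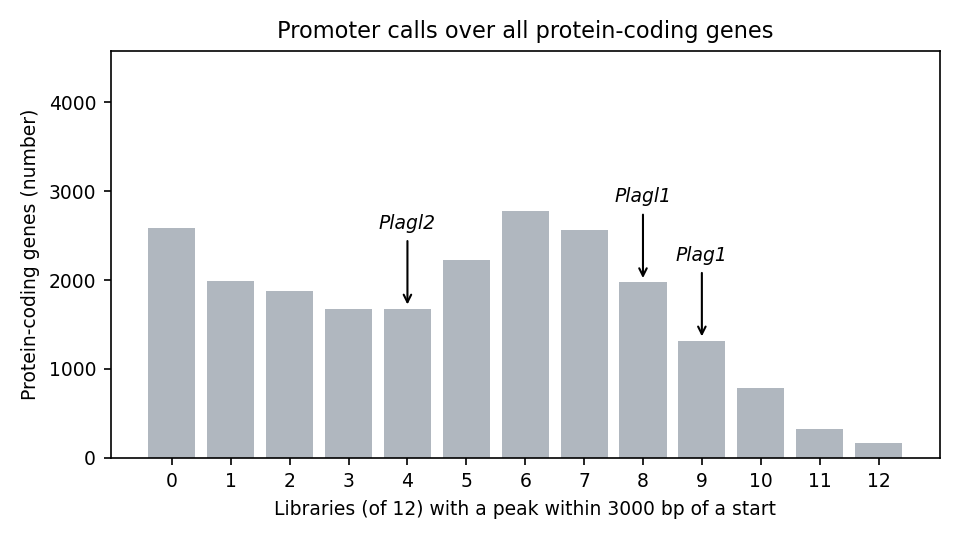
Number of protein-coding genes (bars) by the number of libraries, of 12, with a promoter peak. The arrows mark *Plagl2* at 4, *Plagl1* at 8 and *Plag1* at 9, and the median gene had a promoter peak in 5.

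The loci were not unusual in the density of their peaks. *Plag1* held 3.66 and *Plagl1* 3.38 peaks per 10 kb of window, close to the median of 3.69 over protein-coding genes, and *Plagl2* held 2.36, with 28.0% of genes lower. The median fold enrichment of a peak was 3.10 at *Plag1*, 3.24 at *Plagl1* and 3.11 at *Plagl2*, against 3.16 over all peaks, with medians of 5.5, 6 and 5 tags. After merging across libraries, 12 of 17 *Plag1* regions, 21 of 27 *Plagl1* regions and 9 of 11 *Plagl2* regions came from a single library. That is 70.6%, 77.8% and 81.8%, beside 77.7% of all merged regions.

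The number of peaks at each locus was then compared between treatments. No comparison separated the groups at any of the 3 genes, and the differences were within the spread between libraries. Groups of 3 were compared by an exact two-sided permutation test, whose smallest possible p is 0.10, so 0.05 could not be reached. The comparisons with vehicle share the vehicle libraries, and both comparisons of E2 share the E2 libraries.

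*Plag1* had 2, 4 and 1 peaks in vehicle replicates 1 to 3, 2, 7 and 1 with E2, 3, 2 and 2 with E2 plus fulvestrant and 4, 2 and 2 with fulvestrant. E2 replicate 2 stood above the others and the groups overlapped. The E2 mean was 3.33 ± 3.21 (SD, n = 3), and that of E2 plus fulvestrant was 2.33 ± 0.577, a difference of 1 (exact permutation p = 1), and 1 of 3 same-numbered pairs was higher with E2. Leaving out E2 replicate 2 turned the difference to -0.833, and it was -1 within replicate number 1 and 2 within numbers 2 and 3. Against vehicle, at 2.33 ± 1.53, E2 differed by 1 (exact permutation p = 0.9), by 0 within number 1 and by 1.5 within the others, and leaving out E2 replicate 2 turned this difference to -0.833 as well. Fulvestrant, at 2.67 ± 1.15, differed from vehicle by 0.333 (exact permutation p = 1), by 2 within number 1 and by -0.5 within the others.

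Per 10000 listed peaks, the 3 fulvestrant libraries lay between 0.542 and 0.665 at *Plag1* and the 3 vehicle libraries between 0.225 and 0.361 (exact permutation p = 0.1, the smallest possible). On this scale fulvestrant lay above vehicle without overlap for 4.40% of protein-coding genes tested. The vehicle lists held 44358 to 110724 peaks and the fulvestrant lists 30062 to 73801, and the part of list length in this difference was not tested.

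*Plagl1* had 2, 4 and 2 peaks in vehicle replicates 1 to 3, 7, 2 and 1 with E2, 5, 4 and 2 with E2 plus fulvestrant and 6, 1 and 5 with fulvestrant. The highest library of each treated group was replicate 1. E2, at 3.33 ± 3.21 (SD, n = 3), and E2 plus fulvestrant, at 3.67 ± 1.53, differed by -0.333 (exact permutation p = 1), with a difference of 2 within replicate number 1 and of -1.5 within the others. Against vehicle, at 2.67 ± 1.15, E2 differed by 0.667 (exact permutation p = 1) and fulvestrant, at 4 ± 2.65, by 1.33 (exact permutation p = 0.6). The latter was 0.333 without fulvestrant replicate 1, 0.833 without replicate 3 and 2.83 without replicate 2, and it was 2 without vehicle replicate 2. Within number 1 the E2 and fulvestrant differences from vehicle were 5 and 4, and within the others -1.5 and 0. The sign of the E2 difference from E2 plus fulvestrant turned on single libraries, ranging from -2.17 without E2 replicate 1 to 0.833 without E2 replicate 3.

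*Plagl2* had 3, 3 and 0 peaks in vehicle replicates 1 to 3, 2, 2 and 0 with E2, 2, 1 and 0 with E2 plus fulvestrant and 2, 0 and 0 with fulvestrant. Replicate 3 held no peak in any treatment. E2, at 1.33 ± 1.15 (SD, n = 3), and E2 plus fulvestrant, at 1 ± 1, differed by 0.333 (exact permutation p = 1), by 0 within replicate number 1 and by 0.5 within the others. Against vehicle, at 2 ± 1.73, E2 differed by -0.667 (exact permutation p = 0.6) and fulvestrant, at 0.667 ± 1.15, by -1.33 (exact permutation p = 0.4). The latter difference was -2.33 without vehicle replicate 3, -2 without fulvestrant replicate 1 and -0.833 without vehicle replicate 1 or 2. Within number 1 both differences were -1, and within the others -0.5 and -1.5. Over all protein-coding genes, the median difference from vehicle was -1 for E2 and -1 for fulvestrant.

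**Figure D4:**
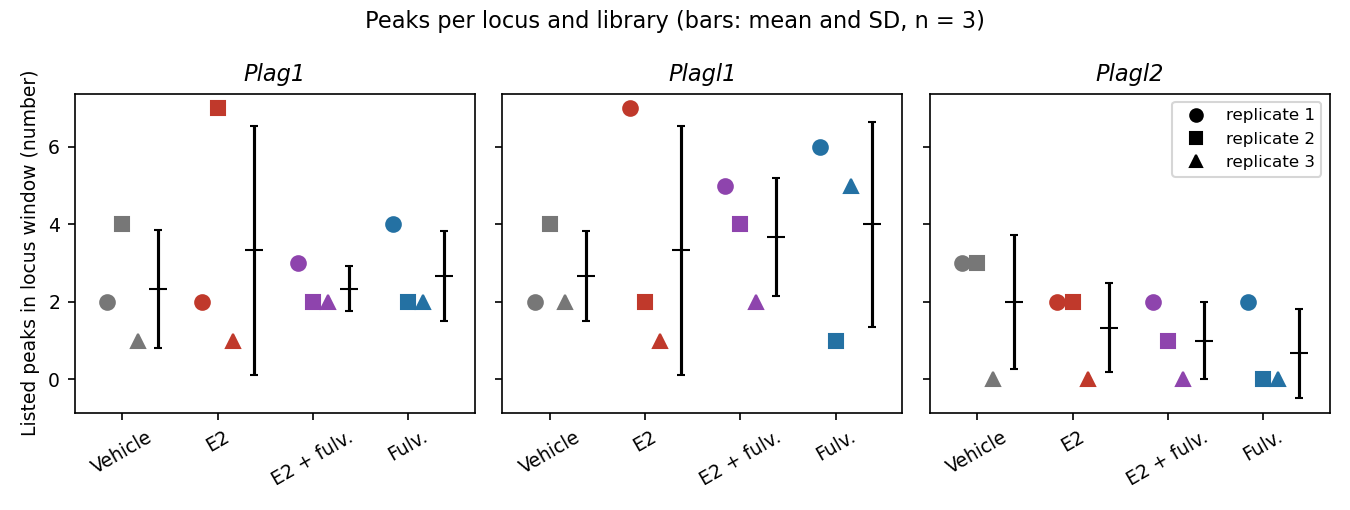
Number of listed peaks in each gene's window by treatment, where circles, squares and triangles are replicates 1, 2 and 3 and the bars to the right of each group give the mean and SD (n = 3). The groups overlap in every panel, and the highest *Plag1* point, at 7, is E2 replicate 2.

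Since the 3 genes had overlapping groups in number of peaks in all 3 comparisons, the share of genes without overlap gives the background for this count. E2 lay above E2 plus fulvestrant without overlap for 1.70% of 21291 genes tested and below it for 0.456%. The shares were 0.172% and 3.26% for E2 above and below vehicle, and 0.168% and 4.63% for fulvestrant above and below vehicle. The Benjamini-Hochberg adjusted permutation p was 1 for every gene in each comparison, and the smallest raw p was 0.1, so 0 genes had an unadjusted p under 0.05.

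The place of the strongest promoter peak within its own list, as a percentile by p-value with 0 for no peak, was compared between E2 and E2 plus fulvestrant as well. For *Plag1* it differed by 8.98 percentile points (exact permutation p = 0.8), from an E2 mean of 64.7 ± 56.1 (SD, n = 3) to one of 55.8 ± 50.9 in the presence of fulvestrant. For *Plagl1* the E2 mean of 28.4 ± 49.1 was lower than the 74.8 ± 11.7 with E2 plus fulvestrant, a difference of -46.4 (exact permutation p = 0.3). That difference turned to 5.51 at q of 0.05 or less or with promoters limited to 1000 bp, and to 16.5 within replicate number 1. For *Plagl2* the difference was 1.23 (exact permutation p = 1).

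A list of 18 genes that PLAG proteins are known to act on, or that share the imprinted network of *Plagl1*, was examined in the same windows. Their promoters were listed in 3 to 11 libraries, with a median of 7.5, against 5 for all protein-coding genes. The list was chosen with earlier results of these data known, so these medians are given as a description only. Between E2 and E2 plus fulvestrant, 0 of 18 genes had groups without overlap in either direction, beside 1.70% of genes above and 0.456% below, and the median difference was 0.667 peaks, against 0.333 over all genes. Between E2 and vehicle, 0 of 18 had groups without overlap, beside 0.172% above and 3.26% below. *Igf2*, the growth factor gene activated by PLAG1, had 4, 1 and 1 peaks in vehicle replicates 1 to 3, 7, 1 and 1 with E2, 0, 2 and 2 with E2 plus fulvestrant and 1, 1 and 0 with fulvestrant. Its promoters were listed in 8 libraries, and its difference of 1.67 between E2 and E2 plus fulvestrant had E2 replicate 1 as its highest library.

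Of the same 18 genes, 3 lay lower with fulvestrant than with vehicle without overlap, beside 4.63% of all genes. *Adcyap1r1*, which encodes a receptor for the neuropeptide PACAP, had 6, 4 and 4 peaks in vehicle libraries and 3, 1 and 2 in fulvestrant libraries. *Wnt6*, a Wnt ligand, had 4, 5 and 3 against 2, 2 and 2, and *Fzd9*, a Wnt receptor, had 6, 4 and 3 against 2, 2 and 2. Per 10000 listed peaks, the scale added after the data were seen for this list, 0 of 18 genes had groups without overlap, and all 3 of these overlapped. *Wnt6*, for example, had 0.517, 0.452 and 0.676 in vehicle libraries and 0.271, 0.626 and 0.665 in fulvestrant libraries. These 3 genes were named because their groups did not overlap, and their adjusted permutation p was 1.

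Sequence matches were counted within 100 bp of the strongest summit of each merged region. The PLAG1 element was present in 8 of 55 regions at the 3 loci (14.5%), beside 5.80% of all regions, 10.8% of regions listed in 3 or more libraries and 22.7% of 300 bp RefSeq promoters. Among these 8 were the leading start-site regions of all 3 genes. At *Plagl2* the match fell outside the stretch between the genes printed above. The PLAG1 and AP-1 matches printed for *Plagl1* lay more than 100 bp from the strongest summit, so its counted PLAG1 match was a different one. AP-1 was present in 2 of 55 regions (3.64%), beside 3.99% of all regions. The estrogen response element was present in 0 of 55, beside 0.0265% of all regions, so that few matches could be found in so small a number. A match is a string of letters and does not show that a factor was bound.

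Genes were ranked by how closely their peaks per 10000 listed peaks followed each member over the 12 libraries, among 17442 to 17444 genes with at least 15 peaks. For *Plag1* the closest were *Asb2* (Pearson r = 0.885), *Heatr4* (0.881) and *Cdh10* (0.857). *Lin7a* (0.931), *P2rx5* (0.897) and *Mllt6* (0.895) were closest to *Plagl1*, and *Apmap* (0.945), *Kif14* (0.897) and *S1pr1* (0.888) to *Plagl2*. The 3 members followed one another weakly, with r of 0.0743 between *Plag1* and *Plagl1*, 0.255 between *Plag1* and *Plagl2* and -0.103 between *Plagl1* and *Plagl2*. These values share the 12 libraries and their depths, and are given as a description of the ranking. The named genes hold the highest values of all genes ranked. Whether unrelated genes would reach such values over 12 libraries was not tested. At *Plag1*, E2 replicate 2 stood apart at 1.44 peaks per 10000, with the other libraries between 0.225 and 0.665.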

How the data were processed

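ATAC-seq peak lists of 12 libraries, 1 for each library and with no pooling, were analysed. Per the methods of the study and the submitters' processing notes, the authors trimmed reads with Trimmomatic 0.39, aligned them to mm10 with Bowtie2, removed duplicates with Picard 2.21.4 and called peaks with MACS2, with tags shifted and extended around the insertion sites. In each deposited list a peak has a fold enrichment (a ratio of tag pileup to local background, each with 1 added), p and q on the −log10 scale, a summit and a whole-number score. The smallest deposited −log10 p-value was 2.01, the mark of a cutoff of 0.01, so many listed peaks are weak. Read counts were not analysed here, and the count model of the study was not run.

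Peaks were assigned by summit to the gene body plus 50000 bp upstream for 21938 protein-coding genes of GENCODE M21. Peaks that overlapped or touched were merged across libraries. Tag pileups were solved from fold enrichment and p-value with a tolerance of 0.002 on the −log10 scale. Of peaks with −log10 p below 15, at least 99.97% in each library gave a whole number. The strong *Plag1* start-site peaks lay above that limit. All 32 peaks at *Plag1*, 41 at *Plagl1* and 15 at *Plagl2* gave a whole number. The background, in tags per window, gives relative depth only. Differences between groups of 3 were tested by exact two-sided permutation with Benjamini-Hochberg adjustment over all genes tested (Python 3.11.15, scipy 1.17.1). On simulated lists for E2 against E2 plus fulvestrant, all of 200 genes given 30 added peaks per E2 library among 21938 had groups without overlap. The real lists held 0 to 7 peaks per library at the 3 loci. The simulation therefore checks only that large added differences are found, and cannot show whether differences of a few peaks would be. Sequences came from GRCm38. The RefSeq promoter table matched 1 of the 3 members, *Plagl1*, and that 300 bp entry was used in motif counts only.

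The members, the list of 18 PLAG targets and the markers were chosen with earlier results of these data known. Named were the members, the listed targets without overlap and *Igf2*, neighbors starting in a window, and the 3 genes most alike each member. Alternatives were q of 0.05 or less, peaks per 10000 listed peaks, the gene body alone, promoters within 1000 bp, percentile by fold enrichment, a replicate block, each library left out, and analysis within replicate numbers. Leaving out peaks within 3000 bp of a start of another gene, and the scale of peaks per 10000 for the targets, were added after the data were seen.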

Additional observations from a re-analysis of the deposited data

How the results depend on the processing

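No difference passed 0.05 under any alternative, which designs of 3 against 3 could not allow. Signs, however, turned often. For E2 minus E2 plus fulvestrant, the number of *Plag1* peaks differed by 1 as reported, by 0 at q of 0.05 or less or in the gene body, by -1 within replicate number 1, and by -0.833 to 2.17 with 1 library left out. *Plagl1* differed by -0.333 as reported, by 0 without peaks near starts of other genes, by 2 within number 1, and by -2.17 to 0.833 with 1 library left out. *Plagl2* differed by 0.333 as reported, by 0 at q of 0.05 or less, in the gene body or within number 1, and by -0.167 to 1 with 1 library left out. The percentile of the promoter peak ranged from -18.9 to 41.3 for *Plag1*, from -74.8 to -32.2 for *Plagl1* and from -28.0 to 29.3 for *Plagl2* with 1 library left out. It was 0 for *Plagl2* within numbers 2 and 3, and for *Plagl1* it was 5.51 at q of 0.05 or less and with promoters within 1000 bp, and 16.5 within number 1. *Plagl1* promoter calls fell from 8 libraries to 4 at q of 0.05 or less.

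For E2 minus vehicle, *Plag1* turned to -0.333 in the gene body and ranged from -0.833 to 2.17 with 1 library left out. *Plagl1* turned to -0.333 at q of 0.05 or less and -1.5 within numbers 2 and 3, and ranged from -1.17 to 1.83. *Plagl2* turned to 0.333 at q of 0.05 or less and to 0.00183 per 10000 listed peaks, and ranged from -1.67 to 0. For fulvestrant minus vehicle, *Plag1* turned to -0.333 in the gene body and without peaks near starts of other genes, and to -0.5 within numbers 2 and 3, and ranged from -0.333 to 1.17, and *Plagl2* turned to 0.333 at q of 0.05 or less. *Plagl1* ranged from 0.333 to 2.83 and *Plagl2* from -2.33 to -0.833. Per 10000 listed peaks, fulvestrant lay above vehicle at *Plag1* without overlap, by 0.329 (exact permutation p = 0.1). The 3 targets that lay lower with fulvestrant became 0 per 10000 listed peaks. The cause was not tested.

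The replicate numbers were not taken to pair the libraries, and the main tests ignored them, although libraries of the same number were somewhat more alike. The deviations of same-numbered libraries from their group means correlated between -0.0342 and 0.258, with 6 of 18 pairs over 0.1. Of pairs with different numbers, 1 of 36 was over 0.1. In 23 of 36 cases a library correlated best with its own number in another group. With the replicate block the difference was 1 for *Plag1*, -0.333 for *Plagl1* and 0.333 for *Plagl2* between E2 and E2 plus fulvestrant, each with an exact sign-flip p of 1, and the smallest p this test allows is 0.25, so the block changed no call. A peak can be listed on as few as 3 tags at these loci, so presence or absence of a weak peak is near the limit of what could be called.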
